A study of Homo sapiens with 12 samples.

Results

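The 10 genes described here encode subunits of AP-1, the dimeric transcription factor built from FOS, JUN and related proteins. They are FOS, FOSB, FOSL1, FOSL2, JUN, JUNB, JUND, ATF3, BATF and BATF3. Accessible sites were counted for a gene when the summit, the position of highest signal in a called peak, lay inside the gene or within 50 kb of it and no other coding gene was nearer. This gave 68 summits in 59 peak intervals, out of 188019 summits in the whole list. HT1080 cells, an established human fibrosarcoma line that carries an activated NRAS allele, migrated for 48 h in rat tail type I collagen gels. The low group had 0.3 mg/mL collagen, the medium group 1.0 mg/mL, and the high group 1.7 mg/mL. Every group also received the broad metalloproteinase inhibitor GM6001 at 20 µM, so no untreated cells are among the 12 libraries, 4 at each concentration. Open chromatin was measured by ATAC-seq, in which a transposase cuts and tags accessible DNA, after the gels had been digested with collagenase and the cells had been frozen and thawed. The deposited peak list is pooled over the 3 concentrations, so each value below is 1 pooled value without replicates, and differences between concentrations were not analysed here.

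AP-1 proteins share a basic region that contacts DNA and a leucine zipper that holds the dimer together. JUN proteins pair with themselves or with FOS proteins, whereas FOS proteins need a partner, and the dimers bind the sequence TGACTCA or the related cyclic AMP response element, TGACGTCA. FOS, FOSB, JUN, JUNB and ATF3 are immediate early genes, switched on within minutes by growth factors, stress and RAS to MAP kinase signalling. FOSL1 and FOSL2 respond later, and JUND is made in most cells at rest. In invasive mesenchymal cells AP-1 is best known for driving proteases of the metalloproteinase and plasminogen activator families. BATF and BATF3 lack a transactivation domain and are known mainly from lymphocytes and dendritic cells.

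Each deposited summit carries an enrichment, the fold of its signal over the local background that the peak caller used. The number of fragments overlapping the summit (the pileup) and the local background were recovered from the enrichment and the p-value. The sources used here do not state the unit that was counted. It is called a fragment here but may be a single read. The lowest background anywhere was 20.3 fragments, which is called the genome-wide background here. Over the whole list the median enrichment was 4.27 and the median pileup 101 fragments. The depth per library is unknown, and the 95% intervals given for pileups are exact Poisson intervals that cover counting error only. They treat the counted units as independent. For the cell type, 5 of 8 mesenchymal marker genes (62.5%) had a summit within 1000 bp of the start site, no more than the 63.6% of all coding genes. Their pileups were 2703 at VIM, 1216 at FN1, 690 at ZEB1, 561 at CDH2 and 153 at TWIST1, whereas ZEB2, COL1A1 and COL1A2 had none. Of 8 epithelial markers only EPCAM and KRT18 had one, with pileups of 44 and 107, and of 8 blood cell markers only CD3E and SPI1 did, with pileups of 671 and 515. Farther from the start, epithelial CLDN4 had a summit with a pileup of 2640, and the epithelial markers had 1.01 assigned summits per 10 kb against 0.475 for the mesenchymal ones. These values alone do not establish the labelled cell type.

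A summit within 1000 bp of the annotated start site, called a start-site summit below, was present at 8 of the 10 AP-1 genes, and ATF3 and BATF had none. Across all 20033 coding genes the share was 63.6%, and across the 15841 whose start site is given, 64.7%, against 6 of 8 AP-1 genes with a given start. For ATF3 the start used is the outermost of the annotation, and other starts of the gene were not examined. RefSeq promoter sequences (GRCh38.p14) were matched for 8 of the 10 genes, all but FOSL1 and BATF3. For those 2 genes the strand was not given, and a summit near either gene end was counted. At all 6 genes with both a promoter sequence and a start-site summit (FOS, FOSB, FOSL2, JUN, JUNB and JUND), the strongest such summit fell in the 300 bp promoter window, which holds 250 bp before the start and the first 50 bp after it. Among 10246 coding genes the share was 69.7%.

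The 250 bases before the start site are printed for the 5 immediate early members and for JUND. ATF3, the last one printed, shows the sequence before its outermost annotated start, which had no start-site summit. Each is written 5′ to 3′ on the gene's strand and ends with the base before the start site, from which negative positions count back. Capitals mark matches, on either strand, to TGACTCA, TGACGTCA, its variant TGACATCA known from the JUN promoter, the half-site TGACGT, the SRF CArG box and the GC box GGGCGG, and, on the gene's strand, the TATA element TATAAA. The windows are chr14:75278578-75278827 (plus strand), chr19:45467746-45467995 (plus), chr1:58784048-58784297 (minus), chr19:12791236-12791485 (plus), chr19:18281623-18281872 (minus) and chr1:212565157-212565406 (plus).
FOS: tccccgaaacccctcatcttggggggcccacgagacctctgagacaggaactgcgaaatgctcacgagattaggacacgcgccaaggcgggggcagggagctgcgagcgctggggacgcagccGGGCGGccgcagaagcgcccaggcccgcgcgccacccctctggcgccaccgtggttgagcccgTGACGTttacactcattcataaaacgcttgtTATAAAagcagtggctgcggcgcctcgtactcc
FOSB: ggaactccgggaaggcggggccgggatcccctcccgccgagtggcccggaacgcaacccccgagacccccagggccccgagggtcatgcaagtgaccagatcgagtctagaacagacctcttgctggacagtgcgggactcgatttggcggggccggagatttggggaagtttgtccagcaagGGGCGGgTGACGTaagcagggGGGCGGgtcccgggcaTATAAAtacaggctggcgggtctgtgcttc
JUN: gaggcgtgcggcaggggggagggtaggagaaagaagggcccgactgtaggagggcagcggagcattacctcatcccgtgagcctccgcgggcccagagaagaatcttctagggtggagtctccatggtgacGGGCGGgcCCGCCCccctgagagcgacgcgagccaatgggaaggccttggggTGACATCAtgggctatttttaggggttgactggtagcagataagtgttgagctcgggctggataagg
JUNB: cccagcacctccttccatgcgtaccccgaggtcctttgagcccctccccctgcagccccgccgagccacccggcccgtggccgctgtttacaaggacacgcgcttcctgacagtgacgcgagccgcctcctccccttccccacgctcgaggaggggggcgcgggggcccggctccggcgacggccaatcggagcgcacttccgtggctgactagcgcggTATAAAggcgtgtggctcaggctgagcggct
JUND: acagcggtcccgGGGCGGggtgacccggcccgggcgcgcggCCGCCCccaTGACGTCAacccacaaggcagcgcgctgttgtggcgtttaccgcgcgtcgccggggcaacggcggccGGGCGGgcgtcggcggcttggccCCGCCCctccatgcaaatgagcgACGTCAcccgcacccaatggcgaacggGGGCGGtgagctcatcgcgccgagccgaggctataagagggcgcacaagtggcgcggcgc
ATF3: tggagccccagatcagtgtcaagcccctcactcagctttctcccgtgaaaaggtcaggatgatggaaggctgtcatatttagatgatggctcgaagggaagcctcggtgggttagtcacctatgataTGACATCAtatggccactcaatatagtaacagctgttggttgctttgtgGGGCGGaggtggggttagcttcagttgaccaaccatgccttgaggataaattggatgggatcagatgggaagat

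FOS, FOSB and JUNB each hold a TATAAA element, whose first base lies 33, 30 and 31 bases before the start, and the other 5 promoters hold none. Among 15842 coding promoters of the same length, 6.91% hold it. JUN has TGACATCA with its first base at −67, and ATF3 has the same letters at −123 from its outermost start, against 2.18% of coding promoters. JUND is alone among the 8 in holding TGACGTCA, at −200, against 2.59% of coding promoters. The half-site TGACGT, which was searched only after the sequences had been seen and which lies within TGACGTCA, occurs at −64 in FOS, at −60 in FOSB and at −66 in FOSL2. JUND also holds it, and 9.67% of coding promoters do. TGACTCA itself was found only in FOSL2, as against 3.66% of coding promoters, with its first base 5 bases into the transcribed sequence.
FOSL2: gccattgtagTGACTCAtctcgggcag
That stretch is chr2:28392852-28392878 on the plus strand, with the match in capitals. The SRF CArG box was not found in any of the 8 windows and is present in 1.21% of coding promoters. DNA more than 250 bp before the start was not searched, so a box farther upstream would have been missed. GGGCGG was found in 7 of 8, all but JUNB, against 58.5% of coding promoters and 71.4% of those with a start-site summit. The 2 AP-1 promoters without a start-site summit were also the poorest of the 8 in G and C. ATF3, at its outermost start, had 49.2% with 4 CpG dinucleotides, and BATF had 43.2% with 5. The other 6 ranged from 62% to 74.8%, with 14 to 40 CpG dinucleotides, and the median coding promoter had 62.4% and 17.

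**Figure D1:**
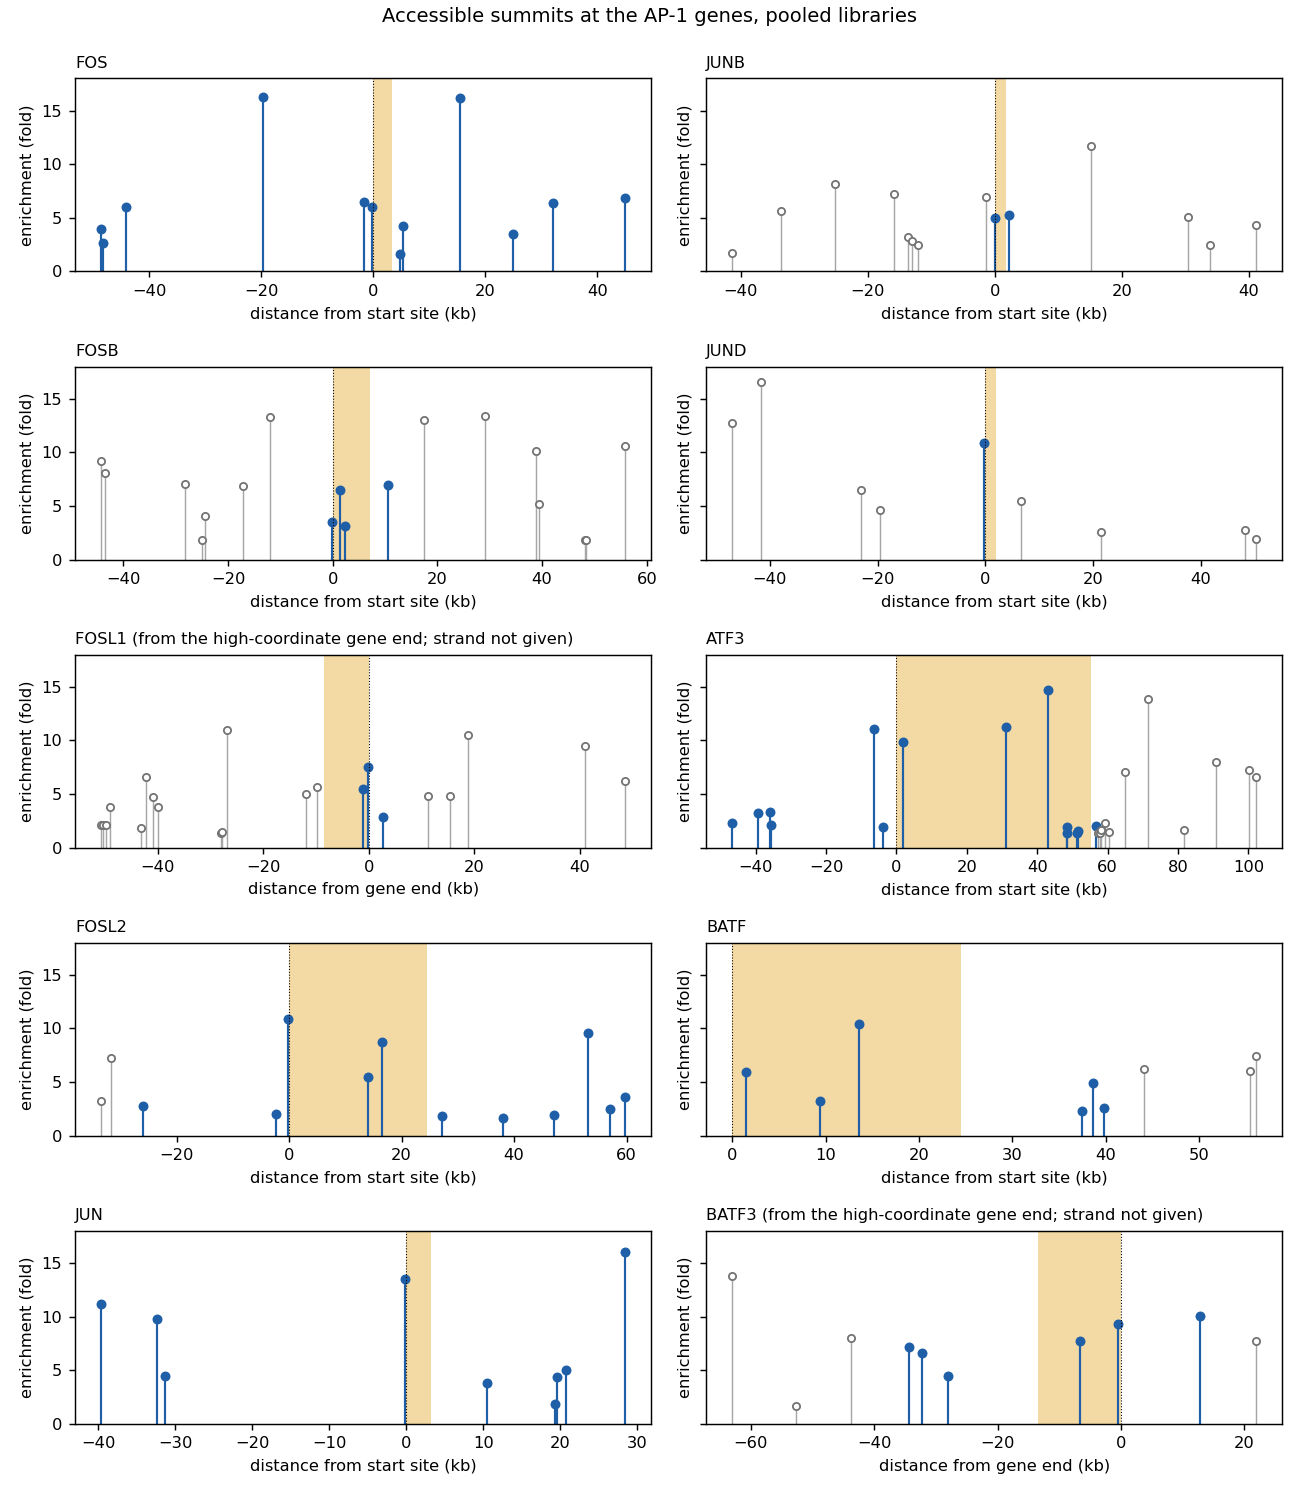
Each panel plots the enrichment (fold over local background, vertical axis) of every summit within 50 kb of 1 gene against its distance from the start site in kb, or from the high-coordinate gene end where the strand is not given. Filled points are summits assigned to the gene, open points lie nearer another coding gene, and the shaded band is the gene body. The 2 tallest points at FOS stand 19668 bp before and 15427 bp after the start, whereas JUND keeps 1 filled point, at its start.

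FOS, the prototype immediate early gene, had 12 assigned summits, none of them inside its 3403 bp body on chromosome 14 (75278828 to 75282230). The start-site summit lay 149 bp upstream in the interval 75278242 to 75279263, with a pileup of 1775 fragments (95% interval 1693 to 1860) and an enrichment of 6.002. A summit 1632 bp upstream had a pileup of 1725 (1645 to 1808), which did not differ from that of the start-site summit beyond counting error. The strongest sites of the locus were not at the gene. The summit 19668 bp upstream, in the interval 75258764 to 75259668, had a pileup of 3367 (3254 to 3483) and an enrichment of 16.3. The summit 15427 bp downstream, in the interval 75293860 to 75294669, had a pileup of 2637 (2537 to 2740) and an enrichment of 16.1. Both pileups exceeded that of the start-site summit by more than counting error. The remaining 8 FOS summits had enrichments of 1.61 to 6.82. No other coding gene was nearest to any summit within 50 kb of FOS.

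FOSB, a second immediate early FOS gene, had 4 assigned summits, all within 11 kb of its start on chromosome 19 (45467996 to 45475179). Its start-site summit, 206 bp upstream, had the lowest enrichment of the 8 start-site summits, 3.49, with a pileup of 687. A summit inside the gene, 1365 bp from the start, was higher, with a pileup of 1335 (95% interval 1264 to 1409) and an enrichment of 6.46. The 2 other summits, at 2271 and 10590 bp downstream of the start, had pileups of 649 and 868. A further 14 summits within 50 kb of FOSB lay nearer ERCC1, RTN2 or VASP.

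FOSL1, which encodes FRA1, a FOS protein abundant in mesenchymal tumour cells, had 3 assigned summits in a gene-dense stretch of chromosome 11 (65892049 to 65900545). The summit near the gene end at 65900545 lay in the interval 65899138 to 65900733 and had a pileup of 2489 (95% interval 2392 to 2589) and an enrichment of 7.53. A second summit of the same interval, just beyond the 1000 bp limit at 1049 bp from that end, had a pileup of 1837, and the remaining assigned summit had 900. Another 18 summits within 50 kb lay nearer other coding genes, the largest such number of the 10 genes.

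FOSL2, which encodes FRA2, had 11 assigned summits over its 24460 bp body and flanks on chromosome 2 (28392858 to 28417317). The start-site summit, 126 bp upstream in the interval 28392182 to 28393429, had a pileup of 2335 (95% interval 2241 to 2432) and an enrichment of 10.9. Inside the gene a summit 16597 bp from the start had a pileup of 2261 (2169 to 2356), which did not differ from the start-site pileup beyond counting error, and an enrichment of 8.77. A second internal summit, 14015 bp from the start, had a pileup of 1393. The start-site summit and the one 2280 bp upstream also lie within FOSL2-AS1, an antisense long noncoding RNA gene. Of the other summits of FOSL2, the one 53209 bp downstream of the start stood out with an enrichment of 9.54 at a pileup of 506.

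JUN, the founding JUN gene, had the start-site summit of highest enrichment among the 8, and its pileup did not differ from that of JUND beyond counting error. Its start-site summit lay 128 bp upstream in the interval 58783432 to 58784714 on chromosome 1 (gene 58780791 to 58784047), with a pileup of 3507 (95% interval 3392 to 3625) and an enrichment of 13.5. The other 8 of its 9 summits lay more than 10 kb away. The one 28426 bp downstream, in the interval 58755264 to 58756018, had a higher enrichment, 15.98, but a lower pileup of 1339 (1268 to 1413). Summits 32356 and 39613 bp upstream had enrichments of 9.75 and 11.1, and both lie within JUN-DT, a long noncoding RNA gene that runs away from JUN. The 5 remaining had enrichments of 1.88 to 5.04.

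JUNB and JUND, the 2 other JUN genes, both lie on chromosome 19 and differ in their start sites. JUNB (12791486 to 12793315) had a start-site summit 10 bp downstream of its start with a pileup of 1543 (95% interval 1467 to 1622) and an enrichment of 5.00. Its only other assigned summit, 2256 bp from the start, had a pileup of 1639 (1561 to 1720), so that the pair did not differ beyond counting error. Another summit, 1374 bp upstream with a pileup of 2160, lies inside the neighbouring gene HOOK2 and was assigned to it. JUND (18279694 to 18281622) had a single assigned summit, 154 bp upstream in the interval 18281192 to 18282358. Its pileup of 3356 (3243 to 3471) and enrichment of 10.9 were both higher than at JUNB, and the pileup intervals do not overlap.

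ATF3, a stress-induced gene whose product is known mainly as a repressor, had the most assigned summits, 14, over a gene of 55371 bp on chromosome 1 (212565407 to 212620777). The summit nearest to the annotated start lay 1875 bp into the gene and had an enrichment of 9.83 at a pileup of 226. The strongest one lay 43154 bp into the gene, in the interval 212608161 to 212609331, with an enrichment of 14.7 at a pileup of 3312 (95% interval 3200 to 3427). As background, ATF3 is known to be transcribed from more than 1 promoter, and the gene start used here is the outermost of the annotation. Exon boundaries were not used here, so this summit was not matched to a second start. Summits 6371 bp upstream and 31021 bp into the gene had enrichments of 11.1 and 11.3. The other 10 had enrichments of 1.36 to 3.30.

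BATF and BATF3, the 2 lymphoid and dendritic cell members, had 6 assigned summits each and no site with a pileup above 524 fragments. At BATF on chromosome 14 (75522469 to 75546992) the summit nearest the start lay 1493 bp into the gene, with a pileup of 126. Its strongest summit, 13613 bp into the gene, had an enrichment of 10.4 at a pileup of 424. At BATF3 on chromosome 1 (212686417 to 212699840) the start-site summit lay in the interval 212699053 to 212700532 and had an enrichment of 9.35. Its pileup of 398 was the lowest of the 8 start-site summits. The other 5 summits of BATF3 had enrichments of 4.46 to 10.0 and pileups of 234 to 524.

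**Figure D2:**
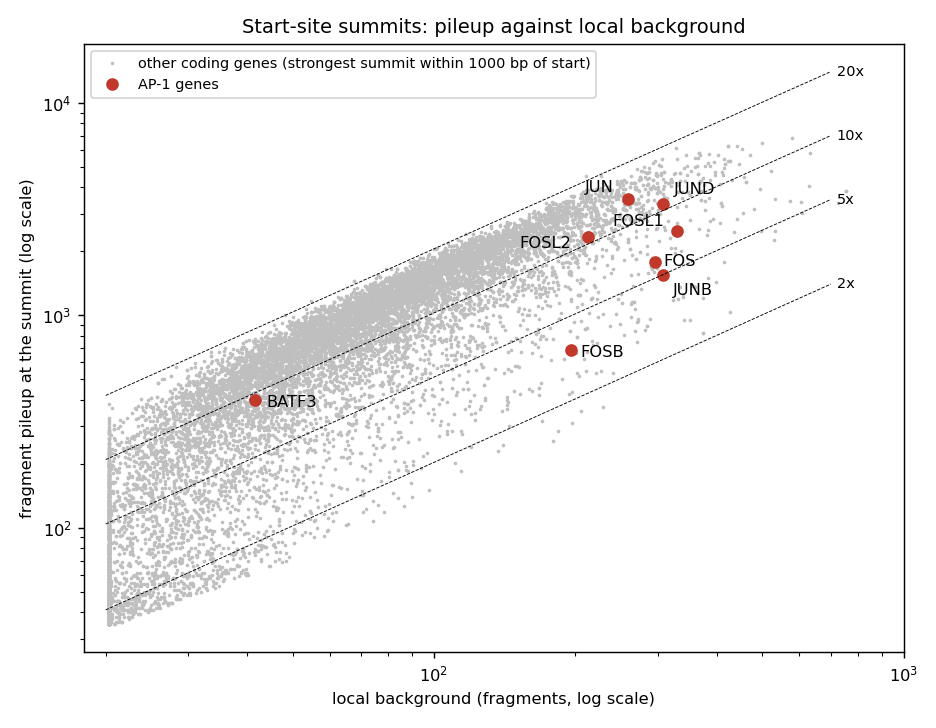
Fragment pileup at the strongest start-site summit (vertical, log scale) against its local background in fragments (horizontal, log scale), 1 grey point for each coding gene and red points for the 8 AP-1 genes with such a summit. Dashed lines mark enrichments of 2, 5, 10 and 20, and 7 of the red points lie at backgrounds of 196 to 329 fragments, with BATF3 apart at 41.7.

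At the start sites, the AP-1 genes had a higher median pileup and a lower median enrichment than coding genes, though not every gene showed both. The median start-site pileup was 2055 fragments over the 8 genes, against 764 over the 12733 coding genes with such a summit, and 6 of the 8 were above the latter. The median enrichment was 8.44 against 11.9, and JUN alone was above it. The local background was higher: its median was 277.1 fragments at the AP-1 genes and 64.0 over coding genes. It was above the coding median at 7 of 8, all but BATF3, and 50% of coding genes are above it by construction.

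By gene, the start-site pileup of JUN was higher than that of 97.8% of these coding genes, that of JUND higher than 97.3%, FOSL1 than 92.6% and FOSL2 than 91.0%. FOS stood above 82.7%, JUNB above 78.0%, FOSB above 45.8% and BATF3 above 29.9%. For enrichment the order was JUN (above 63.1%), FOSL2 and JUND (both above 43.3%), BATF3 (35.1%), FOSL1 (26.6%), FOS (20.7%), JUNB (17.2%) and FOSB (11.8%). The background at FOSL1 was higher than at 99.0% of coding genes, at JUNB and JUND than at 98.8%, and at FOS than at 98.5%. It was 16.2 times the genome-wide background at FOSL1, 14.5 times at FOS and 2.05 times at BATF3. An enrichment is the pileup divided by that background, each plus 1, so the order of these genes depends on which measure is read.

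At several members the best summit farther from the start was higher than the start-site one. Farther, or distant, means only more than 1000 bp from the start. Of the 7 genes with both a start-site summit and summits farther away, 5 (FOS, FOSB, JUN, JUNB and BATF3) had a distant summit of higher enrichment than the start-site one, compared with 36.4% of 9579 coding genes. By pileup it was 4 of 7 (FOS, FOSB, JUNB and BATF3), compared with 31.6%. The distant summit of highest pileup lay 19668 bp from the start at FOS, but 1365 bp at FOSB and 2256 bp at JUNB. At BATF3 it lay 18773 bp outside the gene. Some pairs of start-site and distant summit were ties: the counting intervals overlapped at JUNB by both measures and at BATF3 by enrichment. For enrichment, the intervals hold the counting error of the pileup only, with the local background taken as known. Beyond counting error, the distant summit was higher in enrichment at 3 of 7 (FOS, FOSB and JUN), compared with 27.6% of coding genes, and in pileup at 3 of 7 (FOS, FOSB and BATF3), compared with 26.7%. The strongest distant pileup at FOS was above that of 99.5% of coding genes with a distant summit, and ATF3's was above 99.4%. At BATF and BATF3 these values were 66.0% and 72.5%. The ATF3 summit lies inside the gene, 43154 bp from the outermost annotated start. It was not matched to a second start, so it may not be distant from every start of ATF3. By enrichment, the best distant summit was above 96.4% at FOS, 95.4% at JUN and 63.6% at BATF3, but 42.4% at FOSB and 29.8% at JUNB. At FOSB and JUNB the start-site enrichment was low, above 11.8% and 17.2% of coding genes. The best distant summit was taken from all those of a gene, and the AP-1 genes had a median of 6 assigned summits against 3. The shares of coding genes above were not adjusted for this. Of all 60 distant summits of the AP-1 genes, 9 (15%) had an enrichment of at least 10, near the 11.6% of all 71392 distant summits at coding genes. Their median enrichment of 4.38 was likewise near the 3.85 of the latter, whereas their median pileup was 205 against 106.

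**Figure D3:**
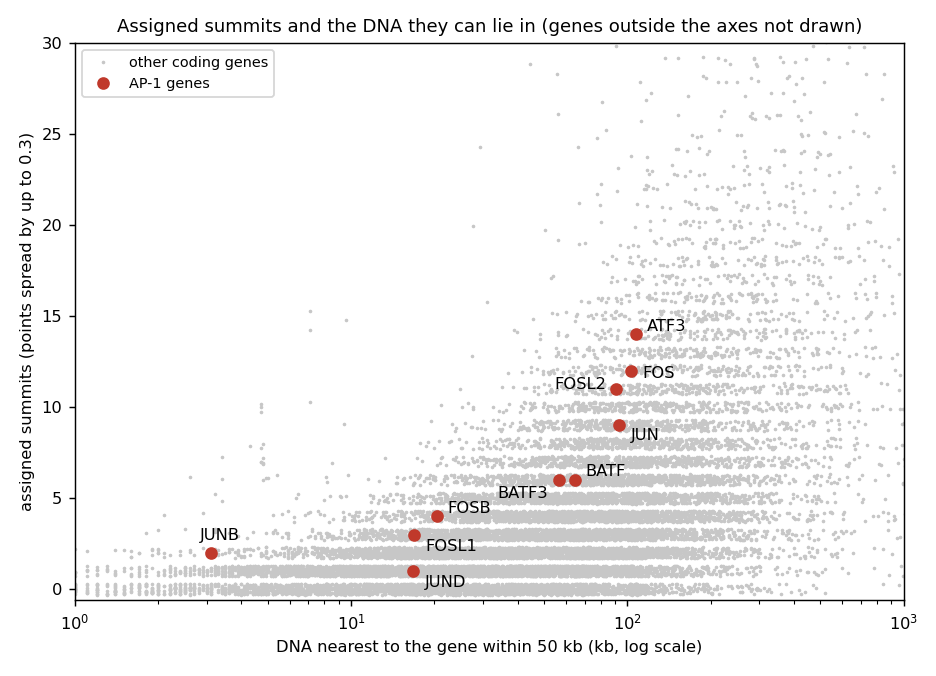
Number of assigned summits (vertical axis) against the length of DNA within 50 kb for which the gene is the nearest coding gene (horizontal axis, kb, log scale), with grey points for coding genes and red points for the 10 AP-1 genes. The red points rise from JUND, with 1 summit in 16.8 kb, to ATF3, with 14 in 107.2 kb.

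The number of assigned summits depends on how much DNA lies nearest to a gene. That length ran from 3.1 kb at JUNB to 107.2 kb at ATF3, and the genes with most summits (ATF3, FOS, FOSL2 and JUN) had 90.8 to 107.2 kb. The median was 6 summits per AP-1 gene and 3 per coding gene, and 7 of the 10 were above 3, compared with 40.6% of coding genes. With noncoding genes also competing for summits, the total over the 10 genes fell from 68 to 33, and FOS, FOSL2 and ATF3 alone stayed above 3. The coding median was then 2 and the AP-1 median 3, and 7 of the 10 were above 2, compared with 40.3% of coding genes. Per 10 kb of that DNA, all 10 were above the coding median of 0.496, as 50% of coding genes are by construction. The highest value was 6.45 at JUNB, from 2 summits, and the lowest 0.595 at JUND. Leaving out the start-site windows' summits, the 10 genes together had 1.05 distant summits per 10 kb, against 0.382 over all coding genes and 0.415 over coding genes with a start-site summit. The values were 0.868 at 16 other immediate early genes and 0.849 at 20 AP-1 target genes, and the median per gene was 1.08 at the AP-1 genes and 1.03 at the other immediate early genes. The 50 kb limit itself fell between summits at 48527 bp from FOS (pileup 137) and at 52174 bp from ATF3 (pileup 272).

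**Figure D4:**
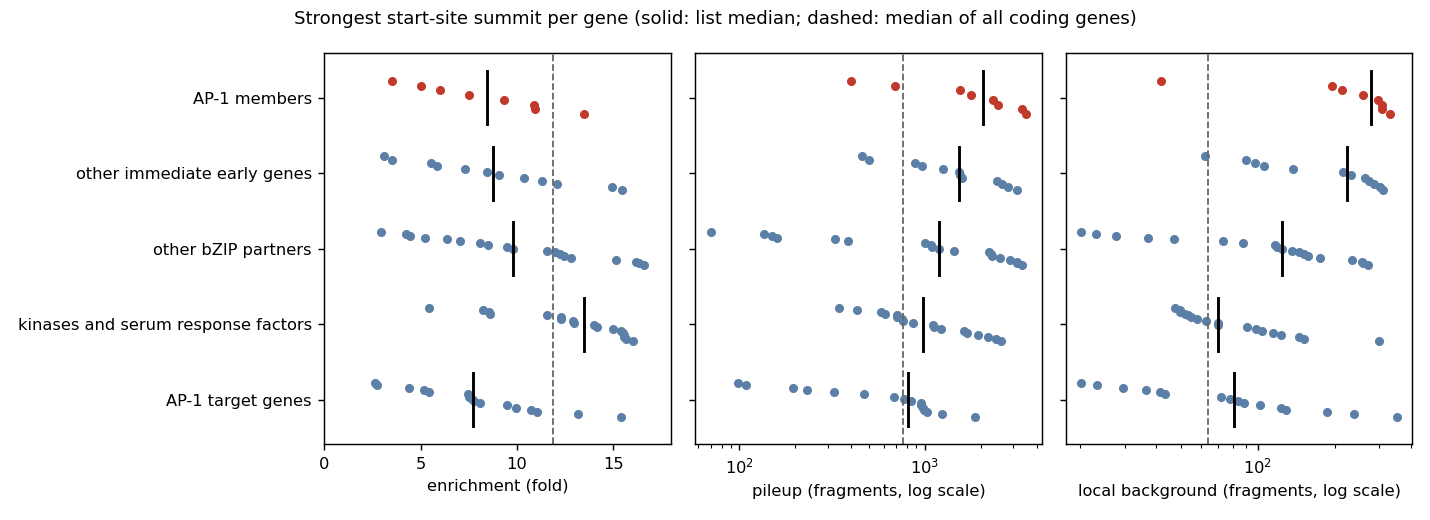
Enrichment (fold), pileup and local background (fragments, log scales) of the strongest start-site summit for each gene of 5 lists, 1 point per gene. Solid bars are list medians and dashed lines the medians of all coding genes. For background, the list medians of the AP-1 genes and the other immediate early genes, 277.1 and 224.0 fragments, lie to the right of the dashed line at 64.0. In these lists the points of BATF3 (41.7) and IER3 (61.9) lie to its left.

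Other genes of the pathway were taken as 4 lists. Among 16 other immediate early genes, which answer the same signals as FOS and JUN, 12 (75%) had a start-site summit, and the median values were an enrichment of 8.75, a pileup of 1529 and a background of 224.0 fragments. The highest enrichment was 15.4 at BTG2, an antiproliferative gene, and the lowest 3.12 at IER2. KLF6, a zinc finger factor, had the most summits, 16, and EGR2, EGR3, KLF4 and NR4A1 had no start-site summit. In 7 of the 12 the best distant summit had the higher enrichment, compared with 36.4% of coding genes with both kinds.

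Among 22 other basic leucine zipper genes, 19 (86.4%) had a start-site summit, at medians of 9.79 for enrichment and 1191 fragments for pileup. ATF7 had the highest enrichment, 16.6, and JDP2, a repressor that pairs with JUN and lies between FOS and BATF on chromosome 14, the lowest, 2.94, with a pileup of 70. BACH2 had the most summits, 27, and MAFK, BATF2 and BACH1 had no start-site summit. Of 20 kinases and serum response factors that act upstream of AP-1, 18 (90%) had a start-site summit. Their median enrichment of 13.5 was the highest of the 4 lists, and their median background of 69.9 fragments was near that of all coding genes. Within this list MAPK14, the p38 kinase, had the highest enrichment (16.01) and MAPK3, or ERK1, the lowest (5.44). MAPK10, a kinase of the JNK group found mainly in neurons, and ELK3 had no start-site summit, although ELK3 had the most assigned summits, 15.

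Of 20 genes known as AP-1 targets, 16 (80%) had a start-site summit, at medians of 7.73 for enrichment, 808 fragments for pileup and 80.6 fragments for background. CXCL8, a chemokine, had the highest enrichment, 15.4, and MMP9, a gelatinase, the lowest, 2.65. CD44, a hyaluronan receptor, had the most summits, 26. SPP1, PLAU, MMP13 and LIF had no start-site summit, though PLAU, the urokinase gene, had 10 assigned summits. Where both kinds were present, the best distant summit had the higher enrichment in 9 of 14 targets and in 5 of 7 AP-1 genes (ties included). The same held in 3 of 13 kinases and serum response factors and in 4 of 15 other basic leucine zipper genes. Over all coding genes with both kinds the share was 36.4%. These are counts in 1 pooled list, and the differences between lists were not tested.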

How the data were processed

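ATAC-seq libraries of HT1080 cells (12, in 3 collagen groups of 4) were represented by 1 deposited list of 188019 summits with 10 columns and no header. The submitters' processing notes name fastp 0.20.0, Bowtie2 2.4.3, deepTools 3.5.0, SAMtools, MACS2 2.2.7.1 and build hg38, with no roles; parameters are not given in the sources used here. No column names a library, so neither groups nor replicates could be compared. The deposited enrichment is a ratio (fold over local background), the p-value and q-value that were deposited per summit are −log10 values (lowest −log10 q 1.30), and the deposited score equals 10 times −log10 q, truncated, in 99.8% of lines. These are the authors' values, used to describe peaks within the list.

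Pileup and background were solved from enrichment = (pileup + 1)/(background + 1) and a Poisson upper-tail p. No label states this model. It returned whole pileups (within 0.05) in 99.96% of lines and for all 68 summits of the AP-1 genes. On data simulated under the same model, the pileup was recovered in 100% of 5000 cases, which checks the calculation and not the model. The nearest gene matched an exhaustive search in 100% of 2000 simulated positions. Nearest coding genes were taken from the RefSeq table (GRCh38.p14) by distance to the gene body, with ties going to the nearer start. Start sites came from the promoter table, which lacks 4192 of 20033 coding genes; either gene end stood in for these. Python 3.11.15, numpy 2.4.6, pandas 2.3.3 and scipy 1.17.1 were used. All 10 members were named, and from each related list the genes with the highest and lowest start-site enrichment, the most summits, or no start-site summit. The members and lists were chosen with earlier results of these data known. Alternatives were other windows, a −log10 q of at least 10, intervals in place of summits, distance to the start site, genes of any kind, ranking by pileup, and a distant summit counted as higher only where counting intervals lay apart.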

Additional observations from a re-analysis of the deposited data

How the results depend on the processing

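Over the 10 AP-1 genes, the 68 assigned summits fell to 36 with a window of 10 kb and to 33 when the nearest gene of any kind, noncoding genes included, had to be a member. In the latter setting FOS kept 4 summits, FOSL2 kept 4 and JUN kept 1. The total stayed within 1.5 times with a window of 100 kb (74), a −log10 q of at least 10 (57), each interval counted once (59) and distance to the start site (64). Single genes moved by more than 1.5 times in 1 to 6 cases per setting, except that none did with each interval counted once. ATF3 went from 14 to 8 with the stricter q, and JUNB from 2 to 6 with distance to the start site. All 10 genes had a summit within 2500 bp of the start (100% against 70.6% of coding genes), because those of BATF and ATF3 lie between the limits. The share was 80% with a window of 500 bp and with the stricter q, and 75% of the 8 genes with a given start site, a setting chosen after seeing the data. The median start-site enrichment was 8.44 in each of the 3 other settings tried. The AP-1 genes with a distant summit of higher enrichment than the start-site one went from 5 to 3, and of higher pileup from 4 to 3, where the counting intervals had to lie apart, also chosen after seeing the data. No paired analysis was possible because the list is pooled and carries no value per library. For the same reason, fits between concentrations and without single libraries were not run. Motifs around distant summits were not searched, since genome sequence was not used here.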

Other observations

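Some of the strongest sites within 50 kb of an AP-1 gene were assigned to a neighbour because it lay nearer. They were picked out after their values were seen. The summit 12002 bp upstream of FOSB, nearer ERCC1, had a pileup of 3099 and an enrichment of 13.3, both above every summit assigned to FOSB. The summit 41588 bp upstream of JUND, nearer LSM4, had an enrichment of 16.5 at a pileup of 1878. Downstream of JUNB, a summit at 15104 bp, nearer RNASEH2A, had an enrichment of 11.7. Between ATF3 and BATF3, which lie 65.6 kb apart, the list held 13 summits, the strongest with an enrichment of 13.8 and nearer GARIN4. Nearest-gene assignment does not say which gene a site acts on.

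FOS, JDP2 and BATF, 3 leucine zipper genes, follow each other on chromosome 14. The 144.7 kb between FOS and JDP2 held 8 summits with a median enrichment of 6.59. The 48.4 kb between JDP2 and BATF held 0, which says only that no summit passed the authors' threshold there.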
